A study of Mus musculus with 62 samples.

Results

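The extensor digitorum longus (EDL), a fast muscle of the lower leg, carried 3144 regions of histone 3 lysine 27 acetylation (H3K27ac) that met no H3K27ac peak in the quadriceps (Quad), soleus (Sol) or diaphragm (Dia). They were found by merging the 4 deposited peak lists into 51588 regions and keeping those that held an EDL peak and no peak of the other 3 muscles. Each of the 3144 was a single EDL peak, so they were 8.79% of the 35750 EDL peaks. The same rule gave 6819 Quad-alone, 3158 Sol-alone and 3255 Dia-alone regions, and 19318 regions were shared by all 4 muscles. The members were chosen by the H3K27ac peak calls of the 4 muscles, so their EDL H3K27ac width, score, enrichment and level are given as a description, with no test.

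All muscles came from wild type, sedentary C57BL/6 mice (the study's text gives C57BL/6J for the wheel-running mice), and each mark was measured in 2 samples per muscle with sequenced input chromatin as background. Per the study's methods, each EDL, Sol or Dia sample pooled the muscles of several male animals and each Quad sample was a single muscle, so no value belongs to 1 EDL. H3K27ac was also measured in 4 further quadriceps sets, with 2 samples each. Of these, Sed and Ex came from wild type mice housed without or with a running wheel (sedentary and exercise in the labels). Wt came from sedentary wild type mice and mTg from sedentary mice with the muscle-specific PGC1a Tg(+) transgene, which drives the coactivator PGC1α in muscle. The 32 histone libraries held 6.41 to 24.2 M tags (M, 1e6 mapped reads), and the EDL H3K27ac libraries 19.8 and 21.6 M. The tag totals of the second Dia samples of H3K27ac and H3K4me2 are exchanged between the file headers and the study's own list of read numbers, so the records leave the mark of these libraries uncertain. Between Dia replicates the level per kb ranked with rho = 0.94 over the H3K27ac list and 0.98 over the H3K4me2 list, against 0.94 to 0.97 for the lists of the other 3 muscles. With Dia left out of the rule, a choice made after seeing the data, 4012 regions were EDL alone. Whole muscle was used, so fibers, vessels, connective tissue and tendon all gave chromatin, and more cells of a type cannot be told apart from more mark per cell.

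H3K27ac is laid down at active enhancers and promoters by acetyltransferases such as p300 and CBP. H3K4me2 is broader and also marks enhancers that are poised or were active earlier. Skeletal muscles share a contractile program but differ in fiber type, and limb muscles and their connective tissue keep the homeobox gene expression of the limb segment in which they formed. The labelled muscle was checked against fiber-type genes: 19 of 20 fast contractile genes were the nearest gene of an EDL peak, and the highest peak of each had a median percentile of 96.5 in the EDL list by level per kb. The exception was the fast troponin gene Tnnt3, which had 0 in Quad as well. For 16 slow contractile genes the median was 71.9 in EDL over 11 genes with a peak, above 67.8 in Dia over 16 and 57.1 in Quad over 13, and below 83.4 in Sol over 15. The slow list therefore did not set EDL below Dia or Quad, and the slow troponin gene Tnni1 stood at percentile 59.5 in EDL against 49.2 in Dia and 74.0 in Sol. Myh7, the slow myosin heavy chain, had 0 nearest peaks in EDL and Quad and 3 each in Sol and Dia. Myh4, the fastest myosin, had 3 in EDL with the highest at percentile 84.4, against 1 in Sol at percentile 3.89.

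The sequences of 5 members near patterning and tendon genes, chosen after their values were seen, show what these regions hold. Each line gives the 300 bases at the centre of a member on the plus strand of mm10, read from the RefSeq copy of that build. All 5 members overlapped an EDL H3K4me2 peak, but the bases shown for Fmod lie outside that peak. Capitals mark any match, on either strand, to 9 words searched. The E-box CAGCTG is read by myogenic factors such as MyoD, and the MEF2 core by the MADS-box factors MEF2A to MEF2D as TATTTATA. The MEF3 word, TCAGGTT, belongs to Six2 and related homeobox factors of muscle. Nuclear receptors read the half-site AGGTCA, which is contained in the longer NBRE word of orphan receptors, AAAGGTCA. The AP-1 word of FOS and JUN proteins was searched as TGANTCA with N any base. The MCAT word of TEAD factors was searched as CATTCC. The core of many homeodomain proteins was taken as TAATTA, and that of RUNX factors as TGTGGT.
Zic1 intron, chr9:91363026-91363325: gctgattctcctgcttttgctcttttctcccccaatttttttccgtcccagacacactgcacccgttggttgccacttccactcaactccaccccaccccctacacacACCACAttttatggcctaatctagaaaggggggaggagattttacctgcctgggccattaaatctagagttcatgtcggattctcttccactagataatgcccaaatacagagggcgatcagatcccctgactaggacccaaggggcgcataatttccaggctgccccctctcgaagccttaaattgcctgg
Hoxa13 first exon, chr6:52260017-52260316: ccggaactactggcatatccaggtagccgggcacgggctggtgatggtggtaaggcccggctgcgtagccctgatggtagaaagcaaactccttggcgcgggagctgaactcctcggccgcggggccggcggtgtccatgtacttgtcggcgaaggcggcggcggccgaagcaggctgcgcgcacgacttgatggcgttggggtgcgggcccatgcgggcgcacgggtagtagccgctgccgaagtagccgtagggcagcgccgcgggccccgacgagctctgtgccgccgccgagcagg
Hoxa13 flank, chr6:52257274-52257573: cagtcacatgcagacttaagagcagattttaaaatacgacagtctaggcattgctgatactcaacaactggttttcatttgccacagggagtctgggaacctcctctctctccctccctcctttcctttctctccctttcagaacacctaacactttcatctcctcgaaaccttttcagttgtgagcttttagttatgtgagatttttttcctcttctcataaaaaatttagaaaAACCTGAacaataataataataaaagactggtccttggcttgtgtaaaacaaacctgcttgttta
Hoxd10 flank, chr2:74689492-74689791: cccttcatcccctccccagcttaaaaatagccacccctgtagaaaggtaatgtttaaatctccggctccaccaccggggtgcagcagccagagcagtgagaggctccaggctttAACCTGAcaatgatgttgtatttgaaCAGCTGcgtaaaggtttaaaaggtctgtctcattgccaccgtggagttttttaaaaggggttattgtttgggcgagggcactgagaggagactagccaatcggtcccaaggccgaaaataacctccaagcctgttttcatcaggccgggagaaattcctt
Fmod intron, chr1:134038530-134038829: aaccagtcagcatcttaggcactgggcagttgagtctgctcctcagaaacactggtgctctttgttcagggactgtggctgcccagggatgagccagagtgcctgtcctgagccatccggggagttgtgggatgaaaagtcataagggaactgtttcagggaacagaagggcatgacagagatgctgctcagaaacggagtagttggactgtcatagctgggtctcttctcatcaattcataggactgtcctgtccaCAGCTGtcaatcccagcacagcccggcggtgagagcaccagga
The Zic1 window lies in intron 1 and held 6 CpG pairs and a single RUNX word. The Hoxa13 first-exon window was coding over all 300 bases, with 37 CpG pairs and 70.0% GC, and held none of the 9 words. The Hoxa13 flank, which held a MEF3 word, was the most AT-rich of the 5 at 38.7% GC. The Hoxd10 flank held a MEF3 word and an E-box, and the Fmod window held an E-box. Over central windows of 300 bases, 21.2% of members and 19.6% of all EDL peaks held the E-box, 5.44% and 4.41% the MEF3 word, and 20.9% and 18.4% the RUNX word. Farther than 5 kb from a transcription start, 21.4% of members and 21.1% of EDL peaks held the E-box. There the MEF3 word stood at 5.51% and 4.86% and the RUNX word at 21.6% and 20.8%. The AP-1 word stood at 10.1% and 11.2% there. The other words stood near the share of EDL peaks, with overlapping intervals. They were at 2.68% and 2.85% for MEF2, 2.12% and 2.38% for NBRE, and 17.6% and 17.7% for MCAT. The homeodomain core was at 6.9% and 6.9%, and the half-site at 22.3% and 21.9%. Sol-alone regions held the RUNX word at 21.7%. The median member window had 3 CpG pairs against 4 for all EDL peaks, and both had 3 farther than 5 kb from a start. A match of letters describes the window and is not evidence that a factor was bound.

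Members were narrow and low within the EDL list, as the regions alone in each other muscle were within theirs. Their median width was 1028 bp (quartiles 770 and 1382) against 1889 bp for all EDL peaks and 2465 bp for EDL peaks in regions of all 4 muscles. It was 775 bp in Quad-alone, 959 bp in Sol-alone and 1083 bp in Dia-alone regions. The median level, on the log2 scale of normalized tags per region, was 5.21 in replicate 1 and 5.25 in replicate 2 against 3.30 in input. For all EDL peaks the medians were 7.14, 7.21 and 4.79. Ranked by mean level per kb within the EDL list, the median member stood at percentile 13.0, with 2253 members (71.7%) below percentile 25 and 5 above percentile 75. In their own lists the medians of Quad-, Sol- and Dia-alone regions were 14.0, 10.5 and 10.8. In all 3144 both replicates exceeded the input, by a median of 1.78 log2 units for the lower replicate. The replicates of members differed by a median of 0.25 log2 units, against 0.19 for all EDL peaks, and their levels per kb ranked alike with Spearman's rho = 0.81 across members and 0.95 across all EDL peaks (a description across regions, which share libraries and are not replicates).

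Many members lay near the limits of calling. Only 252 had an adjusted p under 0.001 in the authors' call over input, 8.02% of members against 64.7% of the EDL list, and 2216 had one of 0.01 or more. The median adjusted p in that call was 0.022 for members, and 0.020, 0.025 and 0.023 for Quad-, Sol- and Dia-alone regions. The nearest peak of another muscle was 4412.5 bp away at the median, 537 members had one within 1 kb, and 948 had none within 10 kb. It was a Quad peak for 1487 members, a Sol peak for 956 and a Dia peak for 701. Just inside the rule, a member nearest to 2900057B20Rik (score 20.5) stood 2 bp from a Dia peak and one nearest to Gm4265 (score 9.9) 3 bp from a Quad peak. Just outside it, an EDL peak nearest to BB123696 (score 9.9) shared 1 bp with a Dia peak and one nearest to Nedd4l (score 13) 2 bp with a Quad peak. Whether starts count from 0 or 1 is not given in the sources used here, so the shared 1 bp may be peaks that only touch, which were merged as well. The levels of the other muscles at the members are not given in lists without a peak there, so absence means no call, not no acetylation.

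By the authors' peak score the first member was in intron 1 of Zic1, a zinc-finger patterning factor, at chr9:91360291-91366061, 5770 bp wide. It read 8.48 and 8.92 in the EDL replicates and 6.11 in input, a mean of 8.70 ± 0.31 (SD, n = 2) that stood 2.59 log2 units over input. Atl2, which encodes an atlastin GTPase of the endoplasmic reticulum, followed with 8.52 and 8.19 over an input of 5.34 at chr17:79874294-79877777, over exon 2. A region 23728 bp from the start of Spic, a transcription factor gene of macrophages, read 8.05 and 8.45 over 5.27 and overlapped no H3K4me2 peak of the 4 muscles. Intron 5 of Myom3, an M-band protein gene, carried the widest member at 5957 bp, with 7.96 and 8.39 over 5.67.

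The other 6 of the 10 highest scores lay between 125.5 and 144.8. They were in Fhod3 (nearest start Tpgs2), in Pdgfa, which encodes a platelet-derived growth factor chain, at the promoters of the histone demethylase gene Kdm4b and the myristoyltransferase gene Nmt2, upstream of Ggt6 and in intron 1 of Mss51. Their replicate levels ran from 7.74 to 8.30 and their inputs from 5.41 to 5.78. In the 10 the mean of the replicates stood 2.17 (Mss51) to 3.01 (Atl2) log2 units over input. Both promoters carried H3K4me2 of all 4 muscles and met H3K27ac in Sed, Ex and Wt quadriceps. Mss51 and Spic met no H3K4me2 in any of the 4 muscles.

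Members were mostly away from promoters. By the authors' annotation 118 were at promoters, 3.75% (Wilson 95% interval 3.14 to 4.48), against 13.4% of all EDL peaks and 17.9% of EDL peaks in regions of all 4 muscles. The share was 1.57% in Quad-alone, 2.12% in Sol-alone and 3.63% in Dia-alone regions. Within genes lay 2052 members (65.3%), more than the 54.5% to 57.4% of the other muscles' alone regions, and 974 (31.0%) were intergenic. The median distance to a transcription start was 24955.5 bp, against 14208 bp for all EDL peaks. Of the 118 promoter members, 107 overlapped EDL H3K4me2, 106 overlapped H3K4me2 of another muscle and 74 a quadriceps ATAC peak. The promoter members after Kdm4b and Nmt2 included those at Tsga10, Lins1, Ints9, Tars, Six2, Chad and Hoxd10, with scores from 71.9 to 104.8.

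H3K4me2, from ChIP libraries that the selection did not use, was called more often at EDL-alone regions in EDL than in the other 3 muscles. An EDL H3K4me2 peak overlapped 1467 members, 46.7% (44.9 to 48.4). Quad H3K4me2 overlapped 31.4%, Sol 22.1% and Dia 18.8%. In the EDL H3K4me2 list the shares of Quad-, Sol- and Dia-alone regions were 19.6%, 20.9% and 21.5%, whose intervals lie below that of the members. Each muscle's own H3K4me2 was likewise the most frequent at its own alone regions, but at lower shares, 33.8% for Quad, 32.2% for Sol and 28.9% for Dia. All EDL peaks overlapped EDL H3K4me2 at 71.5%. The H3K4me2 and H3K27ac peaks of a muscle were called over the same input library, so the calls of the 2 marks are not fully independent. Intervals cover counting error only, and each list is a single call over 2 samples, so no test across animals was possible.

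**Figure D1:**
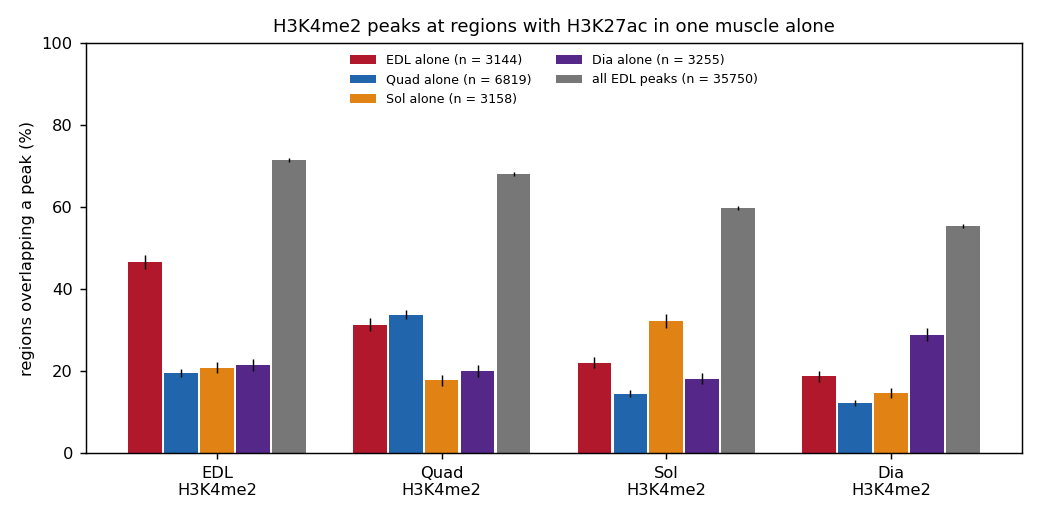
Share of regions (y axis, percent) that overlapped an H3K4me2 peak of each muscle (x axis) for regions with H3K27ac in a single muscle alone and for all EDL peaks. Bars are shares and lines are Wilson 95% intervals. EDL-alone regions reached 46.7% in the EDL list, and each muscle's alone regions were highest in its own list.

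Within the members, 465 (14.8%) overlapped H3K4me2 of EDL and of no other muscle, 1002 (31.9%) that of EDL and another muscle, 201 (6.39%) that of another muscle only, and 1476 (46.9%) none. H3K4me2 of all 4 muscles was present at 412. The EDL H3K4me2 peaks met by members were low in their own list, at a median percentile of 33.7. Those met in Quad, Sol and Dia stood near the middle, at 50.4, 50.9 and 52.0. Members with EDL H3K4me2 alone had a median H3K27ac percentile of 13.7 and those with none 8.57, against 29.2 for those with H3K4me2 in all 4 muscles.

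The 8 highest-scoring members with H3K4me2 in EDL and in no other muscle were at Fhod3, Tacc2, Plk2, Fmod, Mir181a-2, Pdia6, Gypc and Lrrc28. The region in intron 4 of Tacc2, a coiled-coil gene of the microtubule machinery, was at chr7:130680448-130683363. It read 7.93 and 7.90 for H3K27ac over 5.78 in input, and its EDL H3K4me2 peak read 4.89 and 5.16, percentile 29.1 of that list. Intron 1 of Fmod, which encodes the collagen-binding tendon proteoglycan fibromodulin, read 7.90 and 7.49 over 5.41 across 4862 bp, while its H3K4me2 peak read 5.25 and 5.05, percentile 1.25. The Mir181a-2 region, in an intron of Nr6a1, had H3K4me2 at 7.45 and 7.01, percentile 40.4. All 3 H3K4me2 peaks lay below the middle of the EDL H3K4me2 list.

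Most members were acetylated in other quadriceps samples of the series. A peak of at least 1 of the 4 further sets overlapped 2144 members, 68.2% (66.5 to 69.8), against 93.8% of all EDL peaks and 61.0%, 47.2% and 44.5% of Quad-, Sol- and Dia-alone regions. All EDL peaks include those shared with Quad, which the rule kept out of the members. By set, the members' share was 46.1% in Wt, 30.0% in Sed, 24.8% in mTg and 20.2% in Ex. The Wt list was the longest, with 49010 peaks against 34031, 36169 and 34572 for Sed, mTg and Ex. Its input was also the shallowest, at 7.72 M tags against 20.9, 8.83 and 22.9 M, and the part of list length and input depth in these shares was not tested. In Sed the members' 30.0% (28.5 to 31.6) stood above the 20.5% (19.6 to 21.5) of Quad-alone regions, and above 13.1% and 10.7% of Sol- and Dia-alone regions. In Ex the order turned, with 20.2% (18.8 to 21.6) of members against 25.8% (24.8 to 26.8) of Quad-alone regions, and 21.2% and 19.8% in Sol and Dia. Quad-alone regions were called in sedentary quadriceps too, but from a list of 40949 peaks and as weaker calls. Their median score was 13.4 against 20.3 for members, and their median width 775 against 1028 bp. The part of peak strength in these shares was not tested.

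**Figure D2:**
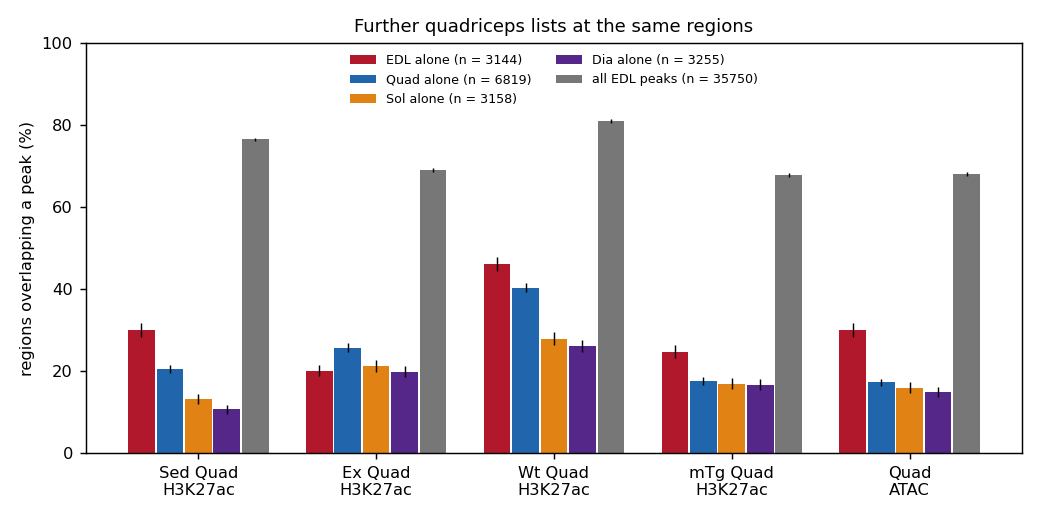
Share of regions (y axis, percent) that overlapped an H3K27ac peak of 4 further quadriceps sets or a quadriceps ATAC peak (x axis). Bars are shares and lines Wilson 95% intervals. EDL-alone regions exceeded Quad-, Sol- and Dia-alone regions in Sed, Wt, mTg and ATAC, and Quad-alone regions were highest of the 4 in Ex.

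No further set met 1000 members, 1 met 974, 2 met 751, 3 met 345 and all 4 met 74. An untreated set (Sed or Wt) met 1772 members, and 372 were met only by Ex or mTg. The peaks met were low in their own lists, at median percentiles of 25.1 in Sed, 28.8 in Ex, 36.9 in Wt and 33.5 in mTg. The 74 members acetylated in all 4 sets were wider, at a median of 1419 bp, than the 1000 acetylated in none, at 913 bp, and 66.2% against 38.5% overlapped EDL H3K4me2. The leading members of the 74 were the shared promoter of Lins1 and Asb7 (7.65 and 7.62 over 5.14), Zc3h3 (7.66 and 7.59 over 5.48) and Tmprss6 (7.35 and 7.79 over 5.22).

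Open chromatin in control quadriceps, from ATAC-seq, overlapped 944 members, 30.0% (28.4 to 31.7). The share was 17.3% of Quad-alone, 16.0% of Sol-alone and 15.0% of Dia-alone regions, and 68.1% of all EDL peaks. Peak strength, lower in Quad-alone regions as given above, was not matched and its part was not tested. MED1, a subunit of the Mediator complex that joins enhancers to polymerase, was called at 834 sites in the single EDL library, and 4 members overlapped one, 0.127% (0.0495 to 0.327) against 1.12% of all EDL peaks. They were the Cmss1 promoter (6.62 and 6.64 over 4.68), a region 5729 bp from Hist1h2bl (6.09 and 6.32 over 4.41), one 12385 bp from Hspd1 (5.33 and 5.86 over 3.69) and one near 4930429B21Rik (3.67 and 3.52 over 1.74). MED1 peaks of Quad and Sol overlapped 15 members each (0.477%, against 4.48% and 5.27% of all EDL peaks) and those of Dia 11 (0.35%, against 3.97%), from lists of 3593, 4070 and 2145 sites. NFAT, a calcineurin-activated factor that drives slow-fiber genes, overlapped 45 members in the Sol list (1.43%, against 3.22% of all EDL peaks).

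These shares followed the strength of the peak. Members were divided by score into 4 ranges of about equal number. From the lowest range to the highest, the share with EDL H3K4me2 ran 31.8%, 41.6%, 52.6% and 60.3%, and the share with H3K27ac in a further set ran 44.7%, 65.5%, 76.6% and 85.5%. For EDL peaks in the same 3 lower score ranges that met another muscle, EDL H3K4me2 was at 33.4%, 41.0% and 49.6%, inside the members' intervals in each of the 3 ranges (28.6 to 35.1, 38.2 to 45.1 and 49.1 to 56.1). H3K27ac in a further set was more frequent at those peaks, at 69.8%, 82.7% and 88.2%. Members were chosen to lack a Quad H3K27ac peak and the further sets are quadriceps too. This difference was therefore partly set by the rule. Quadriceps ATAC was at 12.5%, 25.1% and 33.2% of members and at 15.3%, 26.5% and 38.3% of the other peaks. The top range, scores 29.2 to 212.2, is wide and other EDL peaks fill its upper part, so its values are shown but not compared.

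**Figure D3:**
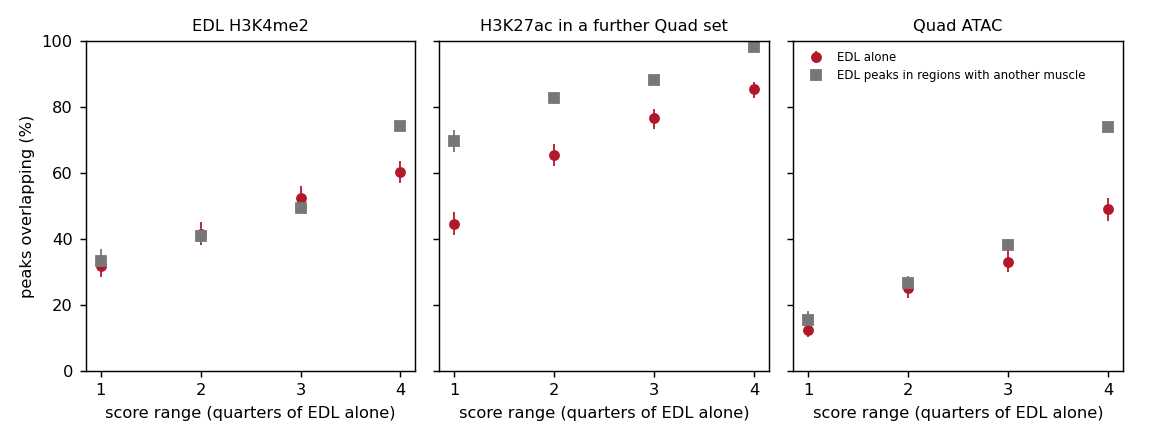
Share of peaks (y axis, percent) overlapping EDL H3K4me2, H3K27ac of a further quadriceps set or quadriceps ATAC, by score range (x axis, 4 ranges with about equal numbers of EDL-alone regions). Points are shares and lines Wilson 95% intervals, red circles for EDL-alone regions and grey squares for EDL peaks that met another muscle. In ranges 1 to 3 both had like H3K4me2 shares (31.8% and 33.4% in range 1), while H3K27ac in a further set was lower at EDL-alone regions (44.7% and 69.8%). EDL-alone regions were chosen to lack a Quad H3K27ac peak, so the latter difference was partly set by the rule.

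The members spread over 2451 nearest genes, of which 1945 had a single member, 382 had 2 and 124 had 3 or more. Most of these genes were not marked in EDL alone: 1812 (73.9%) were also nearest to an EDL peak in a region of all 4 muscles. Only 203 genes, nearest to 220 members, had no H3K27ac peak of Quad, Sol or Dia nearest to them. Of these the highest-scoring, chosen after their values were seen, were Ggt6, Tsga10, Lins1, Il31ra, 2210416O15Rik, Gzmm and Hoxa13. Except at Hoxa13, where none did, all members near these genes met H3K27ac of a further quadriceps set. Il31ra, a cytokine receptor gene, had 3 members, its only 3 EDL peaks, and Hoxa13 and Hoxd10 had 2 each.

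The genes with most members were long loci with many shared peaks. Kcnma1, the large-conductance calcium-activated potassium channel, had 7 members among its 30 EDL peaks, all in its introns, between 133558 and 376777 bp from the start. Its 3 strongest read 7.57 and 7.63, 7.68 and 6.78, and 7.50 and 7.07, over inputs of 4.96 to 5.44. None of the 7 overlapped EDL H3K4me2, and 5 met H3K27ac of a further quadriceps set. Plpp3, a lipid phosphatase gene, also had 7, all weak, with scores of at most 22.4 among 34 EDL peaks. Sox6, a repressor of slow-fiber genes, had 6, the strongest 1040 bp from its start with 6.78 and 6.94 over 4.84, in an intron. Mbnl1, the muscleblind splicing regulator, had 5, and all 5 overlapped EDL H3K4me2. Tacc2 and Map4, both of the microtubule apparatus, had 6 each, and Nfib, Mir6344, Twist2 and Rbfox1 had 5 each. Of the 5 members assigned to Twist2, 3 lay within the neighbouring gene Hdac4.

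Among the gene lists used to describe the members, cardiac identity genes had 1 of 2 EDL peaks alone and bone and cartilage markers 3 of 13 (23.1%). Of the lists with 20 or more EDL peaks, the limb and positional identity factors had the highest share of EDL-alone peaks. Of 53 EDL peaks near 25 such genes, 12 near 8 genes were EDL alone, 22.6% (13.5 to 35.5), against 8.79% (8.51 to 9.09) of all EDL peaks. No test was made of the list, which was chosen with earlier results known and whose peaks share genes, so its interval describes counting error and supports no difference. The same list gave 12 of 58 Quad peaks alone in Quad (20.7%, against 16.7% of all Quad peaks), 5 of 47 in Sol (10.6%, against 9.24%) and 6 of 42 in Dia (14.3%, against 9.83%). Its EDL members had a median percentile of 31.2, and 9 of the 12 met no further quadriceps set, where 1000 of all 3144 members did.

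**Figure D4:**
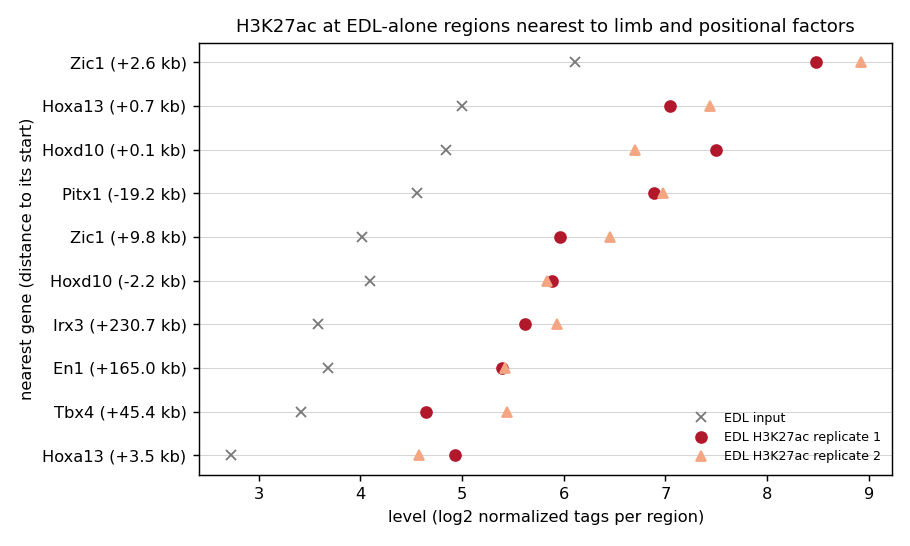
Levels of 10 of the 12 EDL-alone regions nearest to limb and positional factors (x axis, log2 normalized tags per region; y axis, nearest gene and distance to its start, by falling score). Crosses are EDL input, circles and triangles the EDL H3K27ac replicates. Every replicate point lies above its input, and inputs run from 2.73 to 6.11.

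Besides the intronic Zic1 region, a second member 9836 bp from that start read 5.96 and 6.46 over 4.01. The first exon of Hoxa13, a homeobox gene of the most distal limb segment, read 7.05 and 7.44 over 5.0 at chr6:52258936-52261398, and a flank 3456 bp away read 4.93 and 4.58 over 2.73. The promoter of Hoxd10 read 7.50 and 6.70 over 4.85 at chr2:74690846-74693124, an SD of 0.56, and its upstream flank 5.88 and 5.83 over 4.09. Pitx1, the hindlimb selector, had an upstream member at 6.89 and 6.98 over 4.56. The Tbx4 member, another hindlimb factor, was weak at 4.65 and 5.44 over 3.41. These last met Sed and Wt quadriceps H3K27ac, and the quadriceps is a hindlimb muscle as well. Weaker members were near Irx3 (within Fto) and En1.

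At 3 of these members, the Zic1 intron, the Hoxd10 promoter and the Hoxa13 first exon, H3K4me2 was present in all 4 muscles and ranked highest in EDL. At the intronic Zic1 region the EDL H3K4me2 peak spanned 6999 bp and read 9.84 and 9.73, percentile 72.8 of its list. The Quad, Sol and Dia peaks there spanned 5225, 4625 and 4532 bp at percentiles 44.8, 54.8 and 43.6 of theirs. At the Hoxd10 promoter the percentile was 65.1 in EDL, against 39.5, 54.4 and 18.5 for the Quad, Sol and Dia peaks. At the Hoxa13 first exon it was 59.3 in EDL, against 42.8, 55.5 and 37.1. The Irx3 member went the other way, with its EDL H3K4me2 peak at percentile 20.6 and its Quad peak at 61.1. Each list was normalized separately, so ranks within a list are given and not differences of level. The Hoxa13 and Hoxd10 flanks met H3K4me2 in EDL and in none of the other 3 muscles.

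The myogenic and fiber-type transcription factors had 25 members near 13 of 29 genes, 11.5% (7.93 to 16.5) of their 217 EDL peaks. Six2, a homeobox cofactor of fast-fiber genes, was marked at its promoter with 7.60 and 7.14 over 5.47 and carried H3K4me2 in all 4 muscles. Tbx15, a T-box factor of glycolytic fibers, had a member 126204 bp away at 7.20 and 7.16 over 4.95, and Maf, of fast fibers, one at 6.76 and 7.07 over 5.08. Eya4, a coactivator of the myogenic homeobox network named after its values were seen, had 4 members, the strongest at 6.89 and 6.41 over 4.42.

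For fast contractile genes, 6 of 55 EDL peaks near 5 of 19 genes were EDL alone (10.9%, 5.10 to 21.8), all at scores of at most 30.9. Myl1, Casq1 and Atp2a1, for the fast light chain, calsequestrin and the fast calcium pump, led with 5.86 and 5.88, 5.65 and 5.98, and 5.15 and 5.63. The member in Myh4 was 500 bp wide and read 3.34 and 3.46 over 1.20. For slow contractile genes it was 4 of 40 peaks (3.96 to 23.1), near Mybpc1, Ankrd2 and Actn2. The stronger of both Mybpc1 members, in intron 9 of this slow myosin-binding protein C gene, read 7.27 and 7.45 over 5.50. For glycogen and glycolysis genes it was 4 of 66 (6.06%), with Ldha, Gapdh and Ppp1r3c among their genes. Oxidative and lipid metabolism genes gave 2 of 95 (2.11%, 0.579 to 7.35), near Bdh1 and Ucp3. Growth and atrophy regulators gave 9 of 97 (9.28%), with Acvr2a, Foxo3 and Igfbp5 first, and neuromuscular junction genes 2 of 36, both near Utrn.

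**Figure D5:**
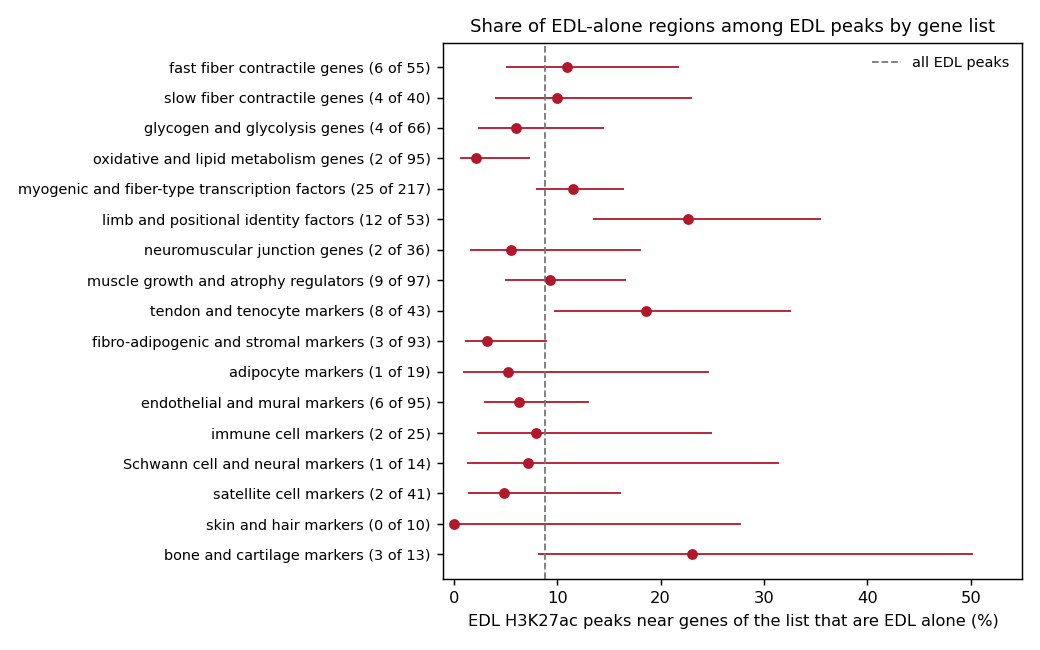
Share of EDL H3K27ac peaks near the genes of each list that were EDL alone (x axis, percent), for lists with at least 10 EDL peaks (y axis, members and EDL peaks in brackets). Points are shares, lines Wilson 95% intervals, and the dashed line is the 8.79% of all EDL peaks. The bone and cartilage list lies at 23.1% (3 of 13), the limb list at 22.6% and the tendon list at 18.6%. Peaks near 1 gene are not independent, so the lines show counting error only.

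Markers of other cell types were described in the same way. Tendon and tenocyte markers gave 8 members near 6 of 14 genes, 18.6% (9.74 to 32.6) of 43 EDL peaks, against 14.9% of such peaks in Quad, 13.5% in Sol and 23.1% in Dia. Beside Fmod, the promoter of the tendon homeobox gene Mkx read 6.40 and 5.85 over 4.18, and an intron of the collagen gene Col1a2 read 5.70 and 5.21 over 3.68. Thbs4, Bgn and Dcn had weaker members, and the 8 had a median percentile of 7.37. Among the members were thus markers of tendon as well as limb factors, and the part of tendon in the limb list was not tested. Bone and cartilage markers gave 3 of 13 peaks (23.1%), all in Runx2, and cardiac identity genes 1 of 2, near Myl7. Fibro-adipogenic markers gave 3 of 93 (3.23%), near Dcn, Tcf4 and Gsn. Endothelial and mural markers gave 6 of 95, with Vwf, Kdr and Rgs5 first. Immune markers gave 2 of 25, both near Runx1, satellite cell markers 2 of 41 near Vcam1 and Cdh15, Schwann and neural markers 1 of 14 near Pmp22, and adipocyte markers 1 of 19 near Lep. Skin and hair markers gave 0 of 10.

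The response of the quadriceps to training or to PGC1α at members was read from the authors' lists of regions that differed. Of 1287 members with a Sed or Ex peak, 93 were in the list of regions lower in Ex, 7.23% (5.94 to 8.77), against a background of 5.43% of the 42010 merged Sed and Ex regions. In the list higher in Ex were 7, 0.544% (0.264 to 1.12) against 0.909%. Of 1772 members with a Wt or mTg peak, 83 were in the list higher in mTg, 4.68% (3.79 to 5.77) against 3.27%, and 53 in the list lower in mTg, 2.99% (2.29 to 3.89) against 1.51%. The background counts merged regions, and several members can lie in 1 region or 1 member can meet several. Counted as merged regions that met a member, 91 of 1285 were lower in Ex (7.08%), 7 higher in Ex (0.545%), 83 of 1825 higher in mTg (4.55%) and 53 lower in mTg (2.90%). The background was not matched to them for peak strength, whose part was not tested.

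The 8 highest-scoring members in these lists all met regions lower in the treated quadriceps. Levels given here are those of the authors' differing regions, whose limits are not those of the members they met. The Pdia6 member, at chr12:17230443-17232832, met a region at chr12:17227908-17232716. That region read 8.05 and 7.78 in Sed and 7.11 and 6.70 in Ex, a difference of -1.01 between means. The Ggt6 region read 8.03 and 7.52 in Sed and 7.06 and 6.86 in Ex. The Fhod3 region read 7.11 and 7.01 in Sed and 6.40 and 6.32 in Ex, and the Spic region 4.37 and 4.19, and 3.92 and 3.76. A region in Mapk4, nearest to D730045A05Rik, read 5.48 and 6.06 in Sed and 4.97 and 5.07 in Ex. In mTg, the strongest Kcnma1 region read 5.55 and 5.47 against 6.26 and 6.36 in Wt, Tmprss6 6.07 and 5.84 against 6.57 and 6.81, and Ncf4 4.81 and 4.79 against 5.30 and 5.35. In all 8 the replicates of the 2 conditions did not overlap, which describes how the authors' lists were made and is no test. In all, 3 Kcnma1 members were in the list lower in mTg.

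Some differing regions that met weaker members moved further. Near Adgrl4, an adhesion receptor of endothelium chosen after its values were seen, Wt read 5.55 and 6.00 and mTg 7.15 and 7.0. The largest fall in Ex was in a region at chr10:23198201-23203383, from 8.08 and 8.20 in Sed to 7.08 and 6.69. It reaches past both ends of the Eya4 member it met, at chr10:23199043-23200667.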

How the data were processed

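The series holds ChIP-seq of H3K27ac and H3K4me2 in mouse muscles, with MED1 and NFAT ChIP-seq and ATAC-seq. As the study's methods state, ChIP-seq reads had been mapped by the authors to mm10 with Bowtie, keeping unique reads (the submitters' processing notes name version 1.2), and ATAC-seq reads with Bowtie2. Histone peaks were called over input with HOMER from both replicates together, MED1 and NFAT peaks from single libraries per muscle, and ATAC peaks from pooled control samples. The deposited lists give, per peak, a log2 level per library (regularized, normalized within the list), the caller's score, a log2 enrichment and an adjusted p-value over input; the deposited ATAC list gives a signal. No counts were analysed here, so depth is given from the headers' tag totals, in which the second Dia samples of the 2 marks are exchanged against the study's list of read numbers. The authors' fold changes and p-values between conditions in their 4 differential lists were not used. Further, 2 open-region lists and 3 footprint lists were not used here because their coordinates pass the end of chromosome 1 in mm10.

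EDL, Quad, Sol and Dia H3K27ac peaks were merged at 1 bp (the same 51588 regions came from bedtools 2.31.1), and members held only EDL peaks. Overlaps with other lists needed 1 bp. Shares carry Wilson 95% intervals (scipy 1.17.1), which cover counting error only. Levels per kb are the mean log2 level minus log2 of the width in kb, ranked within a list. Members that are promoters, intragenic or intergenic follow the authors' annotation, and host genes were matched to RefSeq symbols for 2163 of 2170 genic members. Words were searched on both strands of windows at region centres. No test was run, since the calls chose the members and regions are not replicates. Members and gene lists were chosen with earlier results of these data known. Named were the 10 members with the highest score, the 8 highest with EDL H3K4me2 alone, those with EDL MED1, the 8 highest in the differential lists, the 10 genes with most members and the leading 3 genes of each list; other names were chosen after their values were seen. Some members that this rule names are not reported here. Interval functions were tested on simulated data. Alternatives varied the thresholds, the overlap, the lists that must lack a region, the level and the windows; leaving out the Dia list was added after seeing the data.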

Additional observations from a re-analysis of the deposited data

How the results depend on the processing

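Counts, widths and shares moved with the strength asked of a peak, and weak peaks made up most members. With an adjusted p under 0.001 asked of EDL peaks alone, 252 members were left, with a median width of 1910.5 bp, a percentile of 40.9, 8.73% at promoters, 63.9% with EDL H3K4me2, 50% with that of another muscle, 91.3% with further quadriceps H3K27ac, 61.9% with ATAC and 0 with MED1. Asked of all 4 lists, it also dropped weak peaks of the other muscles, so regions outside the 3144 entered. That gave 1378 members, 1842 bp, percentile 41.2, 11.4%, 69.2%, 61.0%, 94.4% and 63.0% for these first 8 measures. An enrichment of at least 4-fold lowered values slightly, to 1003.5 bp, percentile 11.7 and 66.5% with further H3K27ac. Without members within 1 kb of another muscle's peak, EDL H3K4me2 was 48.4% and ATAC 33.5%. Counting as alone every EDL peak without 50% reciprocal overlap gave 7030 peaks, 1182.5 bp, percentile 20.1, EDL H3K4me2 49.8%, another muscle's 50.1%, further H3K27ac 79.9% and ATAC 36.1%. Taking the 33106 top peaks of each list gave 1268.5 bp, percentile 20.4, 51.1%, 44.6%, 78.3% and 37.6% for the same measures. Without regions acetylated in a further quadriceps set, 1000 members were left, at 913 bp, percentile 6.18, 2.3% promoters, 38.5% and 28.3% H3K4me2 and 18% ATAC.

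With overlap of at least 50% of the bases of either region, another muscle's H3K4me2 was 34.2%, further H3K27ac 63.6% and ATAC 26.3%. The percentile was 11.6 with levels not divided by width, and 12.9 to 14.4 with 1 EDL replicate left out. Within 5 kb of a start site lay 14.5%. With Dia left out of the rule (added after seeing the data), the 4012 members had 1057 bp, percentile 14.6, 4.59% promoters, 49.3% EDL H3K4me2, 42.5% that of another muscle, 71.5% further H3K27ac and 33.1% ATAC. Of 80 alternative values, 25 were counted as unmoved. For shares and medians this meant inside the members' interval, and for counts of members inside a wider fold range. EDL H3K4me2 was called more often than that of another muscle under every setting tried except the reciprocal overlap. That setting lets a peak of another muscle touch a member. Under the settings that left fewer members, the limb list had 4 to 12 and the tendon list 1 to 8. No paired analysis was possible because the results come from no test and the members were called over both replicates together.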

Other observations

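Values on members that enter none of the comparisons above were chosen after they were seen. Of the 1000 members acetylated in no further quadriceps set, the highest score after Zic1 was in intron 11 of Edar, the ectodysplasin receptor gene of skin appendages, with 7.13 and 7.43 over an input of 5.29. It met a quadriceps ATAC peak and no H3K4me2 of the 4 muscles. Further members of that kind were near the integrin gene Itgb1 (6.87 and 7.07 over 5.13), in Crebbp, which encodes the acetyltransferase CBP (6.64 and 7.09 over 4.79), in Dhh, a hedgehog ligand of Schwann cells (6.78 and 6.66 over 4.79), and over Cyp26b1, a retinoic acid hydroxylase of the limb (6.33 and 6.94 over 4.73). Dhh and Cyp26b1 carried H3K4me2 of all 4 muscles.

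In 153 members EDL H3K4me2 was present with no H3K4me2 of another muscle and no H3K27ac of a further quadriceps set, at a median score of 16.7. The highest of them were near Lrrn2, Adamts5 and Khdc1b. Tfeb, a regulator of lysosomal genes, had one in intron 1 with 6.25 and 6.36 over 4.27.

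By chromosome, the share of EDL peaks that were EDL alone ran from 6.80% on X to 11% on 13, apart from Y with 0 of 5.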
